A study of Mus musculus with 18 samples.

Results

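The translation factors are the proteins that load mRNA and the initiator tRNA onto the ribosome, move the ribosome along the coding sequence and release the finished chain. Their genes were chosen here by symbol: every listed gene whose symbol starts with Eef1, Eef2 or Eif1 to Eif6, without the Eif2ak kinases and without pseudogene symbols, plus the termination factors Etf1 and Gspt1, the cytoplasmic polyadenylation element binding proteins Cpeb2, Cpeb3 and Cpeb4, and the ubiquitin hydrolase Usp16. Cpeb1 was not analysed here. The choice gave 75 of 18204 genes in the table. It used symbols only, but it was made with earlier results of these data known. They were followed in J774.1, a mouse macrophage cell line, as wildtype cells and as cells carrying Ctbp1-/- and Ctbp2-/- (dKO), in which CRISPR frameshifts removed the transcriptional co-repressors CTBP1 and CTBP2. Both genotypes received 1.5 mM MTOB, 0.25 mM 4-Cl-HIPP or a PBS/DMSO vehicle for 4 h. Each of the 6 combinations had 3 samples, 18 in all. The knockout cells were grown out from single cells, so a difference between genotypes cannot be told apart from a difference between clones. MTOB is the keto acid that precedes methionine in the methionine salvage pathway, and both compounds are described as competitors for the substrate site of the CTBP dehydrogenase domain.

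Initiation starts when eIF2 carries the initiator tRNA to the small ribosomal subunit, together with eIF1, eIF1A, eIF5 and the large scaffold eIF3. The cap-binding complex eIF4F, built from eIF4E, eIF4G and the helicase eIF4A with its helpers eIF4B and eIF4H, brings in the mRNA, and the 4E-binding proteins hold eIF4E back. Elongation uses the eEF1 complex to deliver aminoacyl-tRNAs and eEF2 to translocate, and termination uses eRF1 (Etf1) and eRF3 (Gspt1). Many of these mRNAs carry a 5' terminal oligopyrimidine tract, through which growth signalling sets how much of them is translated, so mRNA level and protein output need not move together. The values below are mRNA levels only.

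Levels are given in TPM, the transcript abundance of a gene corrected for its length and for the size of the library, and every listed gene of a sample sums to between 999766 and 999897. TPM hold no read counts, so the depth of each sample is unknown and no counting interval was computed. Samples of a group correlated at 0.983 to 0.987 over the tested genes. The cells carried macrophage markers: 9 of 10 had a row and all 9 averaged 30.8 TPM or more, while markers of other cells were near 0. Of the listed markers both endothelial ones had a row and summed to at most 2.10 TPM in any sample, and for T, B, fibroblast, epithelial and erythroid cells only 1 marker each had a row, at most 1.05 TPM in any sample. Ctbp1 ranged from 170 to 238 TPM in the 9 wildtype samples and from 19.7 to 31.5 TPM in the 9 dKO samples, and Ctbp2 from 87.8 to 96.9 and from 68.5 to 81.9 TPM. A frameshift need not remove the mRNA, so these levels check the labels only in part. The dKO sample MTOB replicate 1 stood apart, with 7.04% of its TPM in 15 mitochondrial genes against 8.98% to 10.3% in the other samples.

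Translation factors were among the more abundant mRNAs of these cells. The 72 above the expression limit, set at the 10th percentile of the authors' mean normalized counts, had a median level of 124.8 TPM, compared with 10.7 TPM for all 16383 such genes. Over 18 samples the 5 most abundant averaged 1162 TPM or more, while 10 genes averaged below 1 TPM. Eef1a1, which delivers aminoacyl-tRNA, led at 9354 TPM, followed by Eif5a, the hypusinated factor that helps stalled ribosomes, at 2246 TPM. Eif4a1 (1571 TPM), Eef2 (1562 TPM) and the exchange factor subunit Eef1b2 (1162 TPM) came next. The ranges of Eif4a1 (1424 to 1757 TPM) and Eef2 (1496 to 1625 TPM) over samples overlapped. Within samples Eif4a1 lay above Eef2 in every MTOB sample and below it in every 4-Cl-HIPP sample, while vehicle samples went both ways.

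Within several roles the levels spread widely. The eEF1 subunits ran from Eef1a1 down to Eef1d, at 437 TPM. Eef1e1, which shares the symbol but encodes a member of the multi-tRNA synthetase complex, averaged 75.4 TPM, and these 5 genes summed to 1.13% to 1.24% of all TPM. The eIF3 subunits ran from Eif3g, at 404 TPM, to Eif3b at 336 TPM and on to Eif3j1, at 8.57 TPM, far below its near-identical copy Eif3j2 at 108 TPM. In the cap-binding group Eif4a1 was highest and Eif4e3 lowest, at 12 TPM. Among start-site and subunit joining factors Eif1 reached 559 TPM and its paralog Eif1b 58.7 TPM. The eIF2 subunits lay close together, from Eif2s3x at 145 TPM to Eif2s1 at 196 TPM, and so did the subunits of the exchange factor eIF2B, from Eif2b1 at 53.5 TPM to Eif2b5 at 74.0 TPM. Factors that place the initiator tRNA outside the usual route were lower than the eIF2 subunits, with Eif2a at 78.6 TPM and Eif2d at 45.4 TPM. The 4E-binding group ran from Eif4ebp1 at 83.1 TPM to Eif4ebp3, which was listed at 0 in most samples and reached 5.79 TPM. Eif4a3, the helicase of the exon junction complex, averaged 242 TPM, and its copy Eif4a3l1 0.0779 TPM.

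The regulators of elongation were lower than the eEF1 subunits and Eef2. Eef2k, the kinase that inactivates eEF2, averaged 2.82 TPM beside 1562 TPM for its substrate. Methyltransferases of elongation factors ran from Eef1akmt1 at 44.2 TPM to Eef1akmt3 at 0.834 TPM. Of the termination factors, Gspt1 averaged 259 TPM and Etf1 165 TPM. The CPEB proteins, which regulate polyadenylation and translation of mRNAs with their binding element, averaged 8.90 TPM for Cpeb2, 5.80 TPM for Cpeb4 and 2.14 TPM for Cpeb3. Usp16, a ubiquitin hydrolase, averaged 51.1 TPM, and Eif6, which keeps the large subunit from joining too early, averaged 175 TPM. Eif1ad was at 102 TPM, while the other eIF1A domain genes were near 0, down to Eif1ad3 at 0.0190 TPM. Eif1ad2, Eif1ad3 and Eif1ad13 were under the expression limit and were not tested.

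**Figure D1:**
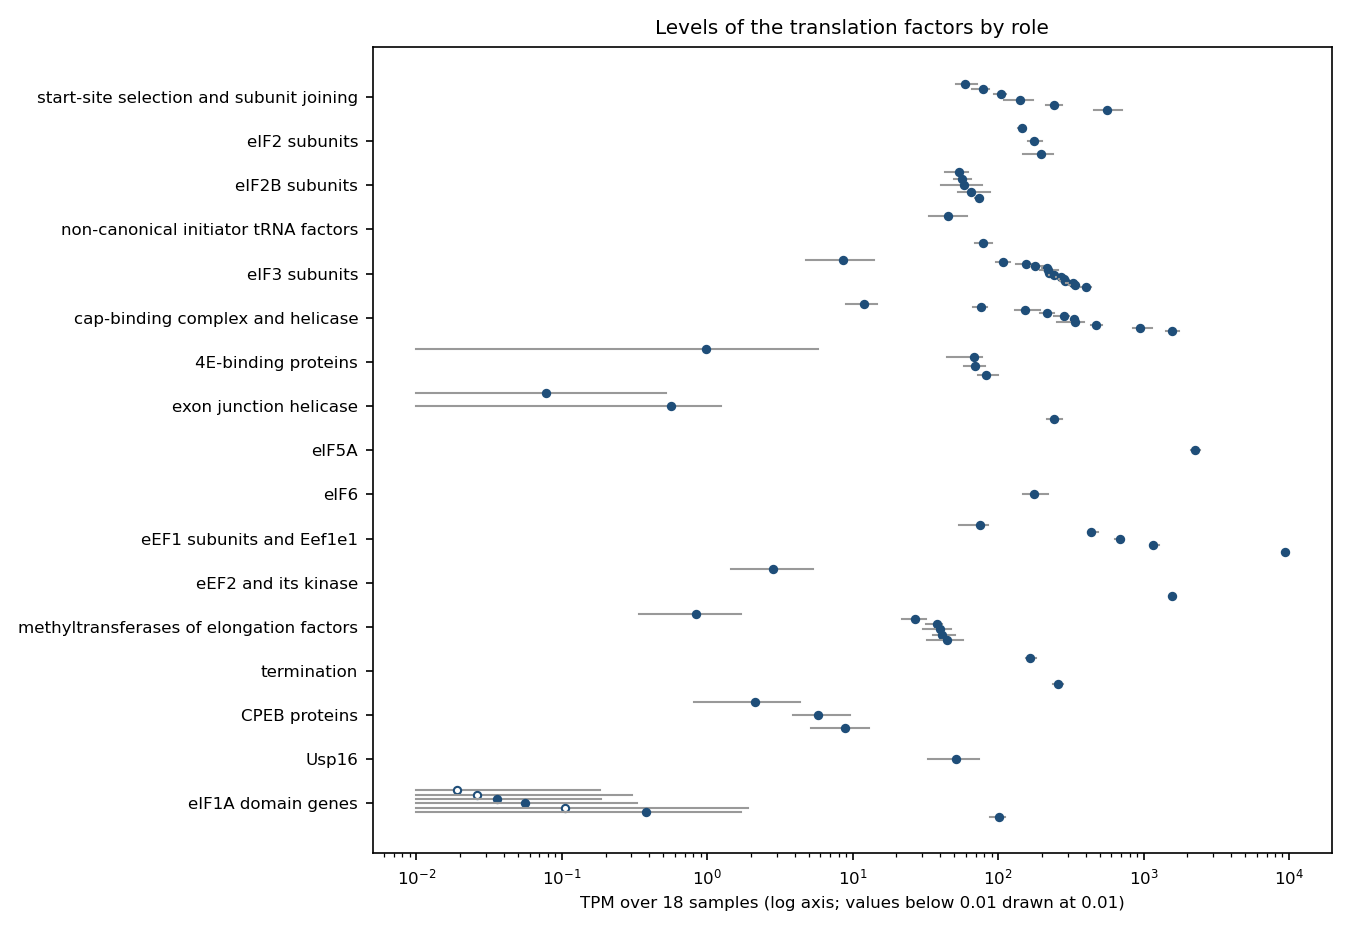
Mean TPM of each of the 75 translation factors (points, log axis) with the range over 18 samples (lines), grouped by role; open points are the genes under the expression limit. Levels run from Eef1a1 at 9354 TPM to Eif1ad3 at 0.0190 TPM.

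The summed level of all 75 genes moved little. Eef1a1 alone averaged 9354 TPM of a mean sum of 26733 TPM, so the sum mostly reflects the most abundant factors. The sum was 2.65% to 2.75% of all TPM in wildtype vehicle samples, 2.75% to 2.77% with MTOB and 2.60% to 2.63% with 4-Cl-HIPP. In dKO cells it was 2.65% to 2.66% with vehicle, 2.65% to 2.82% with MTOB and 2.57% to 2.61% with 4-Cl-HIPP. The 4-Cl-HIPP samples lay below the vehicle samples in both genotypes, whereas MTOB and vehicle samples touched or overlapped. With median-ratio scaling the wildtype MTOB samples, at 2.80% to 2.82%, lay above the wildtype vehicle samples, at 2.68% to 2.74%. The dKO MTOB samples, at 2.65% to 2.92%, then also lay above the dKO vehicle samples, at 2.62% to 2.63%. Without this scaling the highest sum, 2.82%, was in dKO MTOB replicate 1, the sample with the low mitochondrial share. The part of that share in the sum was not tested. Sums of TPM are shares of a fixed total, and no test was made on them.

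**Figure D2:**
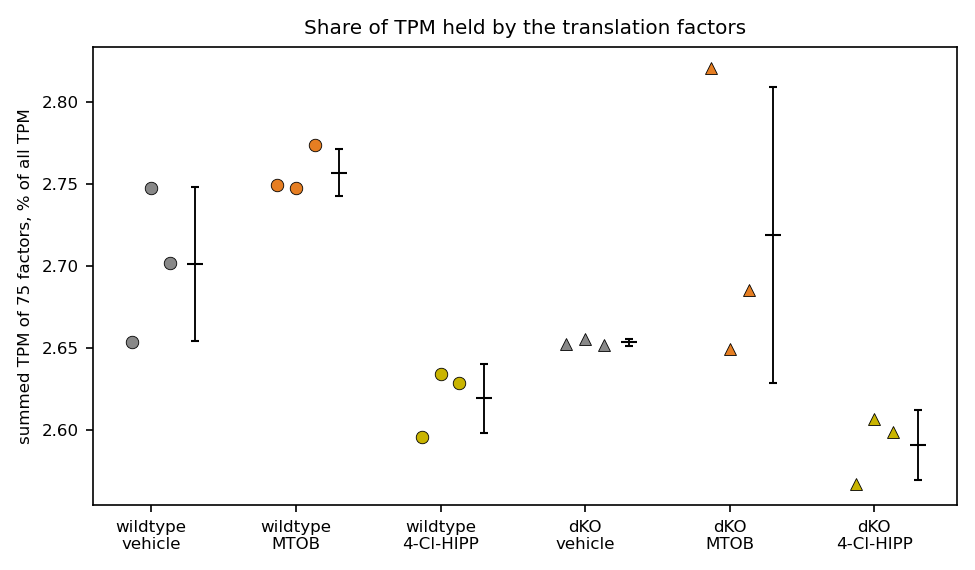
Summed TPM of the 75 translation factors as a percent of all TPM in each of the 18 samples (points; circles wildtype, triangles dKO), with the mean and SD of each group of 3 as bars; the vertical axis does not start at 0. Sums lay between 2.57% and 2.82%, with dKO MTOB replicate 1 highest.

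Differences between groups were tested with limma on log2(TPM + 1) over all genes above the expression limit, and a gene passed at a Benjamini-Hochberg adjusted p below 0.05. Differences of log2(TPM + 1) understate the change of genes at low TPM. Among genes of at least 50 TPM, the 53 translation factors had a median residual SD of 0.0596 on this scale, compared with 0.0833 for all 3275 such genes. Usp16, Eif2b4, Eif1ax and Eif2s1 were the 4 whose SD exceeded the 90th percentile of 0.165. Across the 8 comparisons described next, 27 of the 72 genes passed at least once and 45 in none. Of those 27, 20 passed between genotypes in the average over treatments, where 22.4% of all genes passed. The share of all genes passing at least once was not computed. In bulk samples less mRNA per cell and fewer cells holding it cannot be told apart.

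With MTOB a small set of translation factors changed, each by less than 1.5-fold on the log2(TPM + 1) scale. In wildtype cells 7 of 72 passed. Of these, 5 (6.94%) were higher, beside 3.8% of all genes tested, and 2 (2.78%) were lower, beside 3.46%. In dKO cells 8 passed, 5 (6.94%) higher beside 3.04% of all genes and 3 (4.17%) lower beside 3.54%. On that scale 0 of the 72 passed with a fold above 1.5 in either genotype, beside 2.01% of all genes in wildtype and 1.63% in dKO cells. Cpeb4 in dKO cells passed with mean TPM in a ratio of 1.58, above 1.5 when no pseudocount is added. At an unadjusted p below 0.05 there were 22 (30.6%, all genes 18.4%) in wildtype and 24 (33.3%, all genes 19%) in dKO cells. The median log2 difference of the 72 was 0.0096 in wildtype and 0.031 in dKO cells, compared with -0.0057 and -0.013 over all genes. These medians were not stable: without wildtype MTOB replicate 2 the first was 0.035, without dKO MTOB replicate 1 the second was 0.0036, and over all alternative settings they ranged from 4.7e-05 to 0.035 and from 0.0036 to 0.063. For 65 genes in wildtype and 62 in dKO cells the 95% interval on the log2(TPM + 1) scale lay inside a 1.5-fold change either way. That scale narrows the intervals of genes near 0 TPM, and the share over all genes was not computed.

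Eif4b, Eif6 and Eif3f passed in both genotypes, 3 of the 12 that passed in either. All 7 that passed in wildtype had the same sign in dKO cells, and all 8 that passed in dKO had the same sign in wildtype. The share with the same sign among all passing genes was not computed. The other 9 of the 12 factors were called in a single genotype, which does not show a difference between genotypes. That difference was tested separately.

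Eif4b, the RNA-binding cofactor that stimulates the eIF4A helicase, fell. Its 3 wildtype vehicle samples held 290, 282 and 302 TPM and the MTOB samples 254, 251 and 251 TPM. In dKO cells vehicle samples held 300, 301 and 305 TPM and MTOB samples 247, 246 and 242 TPM. Every MTOB sample lay below every vehicle sample of its genotype. The log2 difference was -0.21 (SE 0.027, adjusted p = 0.000137, limma) in wildtype and -0.30 (SE 0.027, adjusted p = 3.97e-06) in dKO cells. Eif4b was the translation factor with the smallest adjusted p for MTOB in both genotypes.

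Eif6 rose. Wildtype samples held 157, 163 and 163 TPM with vehicle and 197, 192 and 210 TPM with MTOB, and dKO samples 150, 158 and 156 against 220, 198 and 206 TPM. The groups did not overlap in either genotype. The log2 difference was 0.31 (SE 0.064, adjusted p = 0.00781, limma) in wildtype and 0.43 (SE 0.064, adjusted p = 0.000674) in dKO cells. Eif3f, an eIF3 subunit, fell by 0.20 on the log2 scale in wildtype (adjusted p = 0.0447, limma) and by 0.21 in dKO cells (adjusted p = 0.0365). Its wildtype samples held 153, 167 and 165 TPM with vehicle and 145, 133 and 146 TPM with MTOB, and its dKO samples 153, 157 and 170 against 143, 134 and 138 TPM. The other 13 tested eIF3 subunits did not pass in either genotype, and the wildtype call of Eif3f was lost in 8 of 15 alternative settings and its dKO call in 7 of 15.

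Of the 6 start-site and subunit joining factors, 2 rose in dKO cells and 0 passed in wildtype. Eif1, which guards start codon choice, held 490, 453 and 516 TPM with vehicle and 708, 606 and 643 TPM with MTOB, a log2 difference of 0.42 (SE 0.076, adjusted p = 0.00291, limma). In wildtype cells the values were 498, 588 and 566 against 658, 639 and 644 TPM, which also did not overlap, at a log2 difference of 0.24 (adjusted p = 0.0806). Eif1a, part of the scanning complex, held 99.4, 94.2 and 94.7 TPM with vehicle and 110, 108 and 108 TPM with MTOB in dKO cells (log2 difference 0.18, adjusted p = 0.0181). The ratio of Eif1 to its paralog Eif1b was 8.87 ± 0.57 (SD, n = 3) with vehicle and 10.5 ± 0.68 with MTOB in wildtype, and 8.77 ± 0.32 and 11.6 ± 0.19 in dKO cells. Reads of the pairs Eif1 and Eif1b, and Eif1a and Eif1ax, can be shared, so their split is uncertain.

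In the cap-binding group of 10 tested genes, 1 other than Eif4b passed in each genotype, and it rose. Eif4a1 held 1586, 1476 and 1480 TPM with vehicle and 1714, 1757 and 1627 TPM with MTOB in dKO cells, a log2 difference of 0.17 (SE 0.034, adjusted p = 0.00681, limma). Its wildtype difference was 0.09 (adjusted p = 0.151). Its paralog Eif4a2 held 216, 217 and 226 TPM with vehicle and 199, 193 and 199 TPM with MTOB in wildtype (log2 difference -0.16, adjusted p = 0.0569), and the ratio of Eif4a1 to Eif4a2 was 7.20 ± 0.33 and 8.54 ± 0.078 (SD, n = 3). Eif4g2, an eIF4G relative that lacks the eIF4E binding site, held 897, 1050 and 941 TPM with vehicle and 1146, 1020 and 1119 TPM with MTOB in wildtype. The log2 difference was 0.19 (adjusted p = 0.0341, limma), but the lowest MTOB sample lay below the highest vehicle sample, and the call was lost in 7 of 15 alternative settings. Eif4e and Eif4g1, the cap-binding protein and the main scaffold, differed by 0.11 (adjusted p = 0.65) and 0.09 (adjusted p = 0.34) in wildtype.

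Eif4ebp1, whose protein holds eIF4E back when it is not phosphorylated, rose in wildtype cells from 76.7, 73.9 and 73.0 TPM to 87.0, 90.8 and 100.3 TPM (log2 difference 0.31, SE 0.065, adjusted p = 0.00801, limma). In dKO cells it held 72.8, 76.5 and 82.7 against 90.6, 91.1 and 87.8 TPM, without overlap (0.22, adjusted p = 0.0648). The ratio of Eif4ebp1 to Eif4ebp2 was 1.05 ± 0.035 with vehicle and 1.42 ± 0.16 with MTOB in wildtype (SD, n = 3). Eif2s2, the beta subunit of eIF2, held 168, 162 and 164 TPM with vehicle and 186, 183 and 180 TPM with MTOB in wildtype (0.15, adjusted p = 0.0118). Eif2a, which can bring initiator tRNA to the ribosome without eIF2 and is not an eIF2 subunit, fell in dKO cells from 88.8, 83.6 and 89.1 TPM to 71.6, 75.1 and 76.5 TPM (-0.23, SE 0.044, adjusted p = 0.00518).

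Of the termination factors, Etf1 held 159, 161 and 162 TPM with vehicle and 179, 172 and 182 TPM with MTOB in wildtype, a log2 difference of 0.14 (SE 0.032, adjusted p = 0.012, limma). In dKO cells Etf1 differed by 0.11 (adjusted p = 0.0578). Gspt1, its GTPase partner, differed by 0.06 (adjusted p = 0.354) in wildtype. Cpeb4 rose in dKO cells from 5.80, 4.14 and 5.81 TPM to 6.84, 9.61 and 8.36 TPM (log2 difference 0.57, SE 0.15, adjusted p = 0.0275), and in wildtype differed by 0.40 (adjusted p = 0.135) without overlap. The dKO call of Cpeb4 was lost in 5 of 15 alternative settings, among them without dKO vehicle replicate 2 and without dKO MTOB replicate 2 or 3.

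Elongation factors did not pass. Eef1a1 differed by -0.01 (95% interval -0.07 to 0.04) in wildtype with MTOB. Eef2 differed by -0.02 (-0.07 to 0.04) in wildtype and -0.07 (-0.13 to -0.02, adjusted p = 0.128) in dKO cells. Eif5a differed by 0.08 in both genotypes (adjusted p = 0.117 and 0.124). Eif3j1 had the most negative wildtype difference of the tested eIF3 subunits at -0.83 (95% interval -1.40 to -0.26, adjusted p = 0.0795), from 14.0, 12 and 12.5 TPM to 8.62, 6.23 and 5.72 TPM, but its reads can be shared with Eif3j2.

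**Figure D3:**
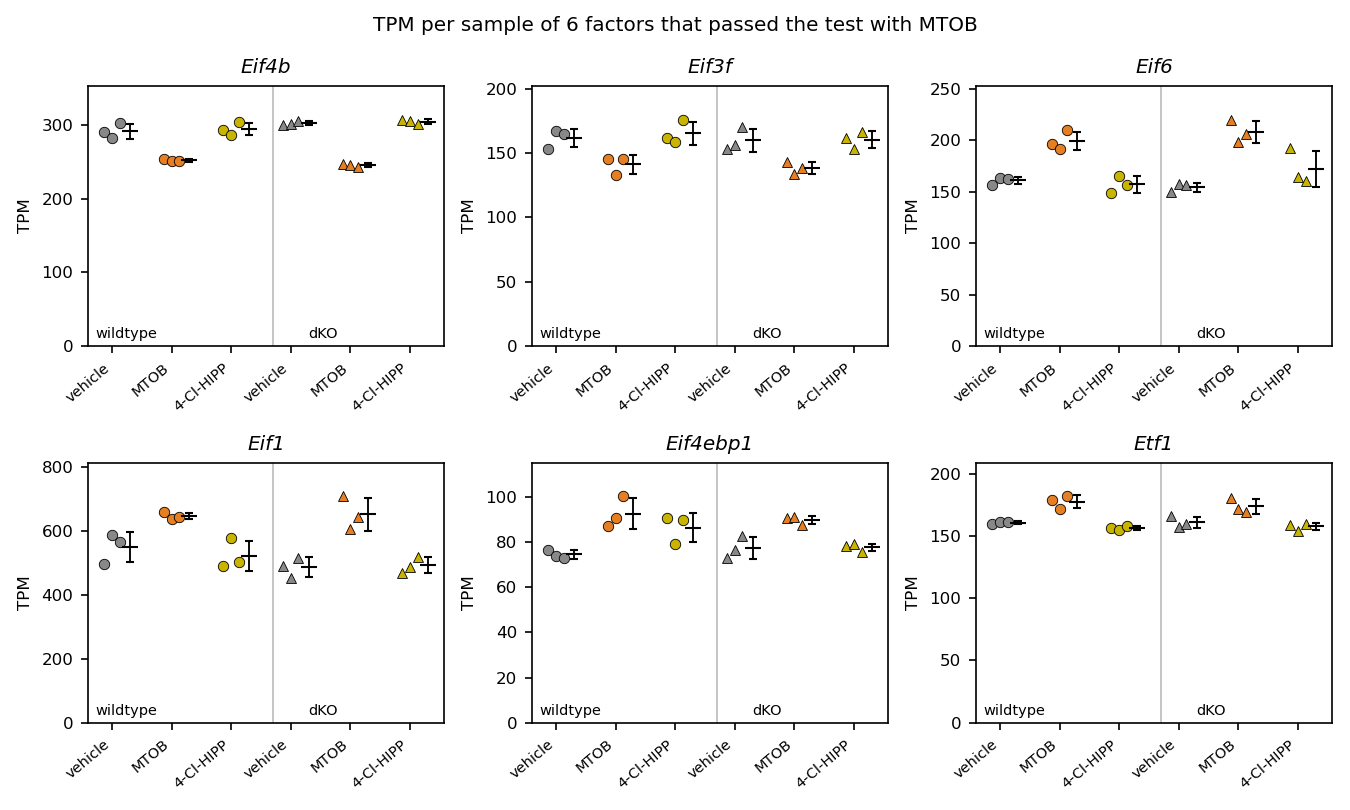
TPM of 6 translation factors in each of the 18 samples (circles wildtype, triangles dKO; grey vehicle, orange MTOB, yellow 4-Cl-HIPP), with mean and SD (n = 3) beside each group; axes start at 0. Eif4b and Eif3f were lower and Eif6, Eif1, Eif4ebp1 and Etf1 higher in every MTOB sample than in every vehicle sample of the same genotype.

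Which calls held differed by gene. Those of Eif4b and Eif6 held in both genotypes under every alternative setting and with each sample left out. Of 15 alternative settings, the dKO call of Eif1a was lost in 5 and the wildtype calls of Eif2s2 and Etf1 in 3 each. Without wildtype MTOB replicate 1 or replicate 3, 4 of the 7 wildtype calls were made, and without a variance trend or with the compared groups fitted alone 3. Without dKO MTOB replicate 1, the sample with the low mitochondrial share, 7 passed in dKO cells, where Eif1 differed by 0.36 (adjusted p = 0.0158, limma) and Eif1a by 0.17 (adjusted p = 0.0522).

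The upstream sequences are shown for 4 members with different results for MTOB: Eif3f fell, Eif4a1 and Eif2s2 rose, and Eef2 did not pass. Eif4a1 passed in dKO cells only and Eif2s2 in wildtype cells only. For both genes every MTOB sample lay above every vehicle sample of its genotype, in wildtype and in dKO cells. Each sequence is the 200 bases before and the first 20 bases from the RefSeq start, in the build GRCm38.p6. It is written 5' to 3' on the gene's strand. CACGTG, the E-box read by MYC and related factors, is in capitals. Coordinates are those of GRCm38.p6, while the expression table was made on GRCm39.
Eif3f, chr7:108934215-108934434, plus strand: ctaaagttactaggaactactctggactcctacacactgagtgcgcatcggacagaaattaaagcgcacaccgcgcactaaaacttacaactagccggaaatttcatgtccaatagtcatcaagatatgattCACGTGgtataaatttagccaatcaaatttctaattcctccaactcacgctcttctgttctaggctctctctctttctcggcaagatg
Eif4a1, chr11:69672404-69672623, minus strand: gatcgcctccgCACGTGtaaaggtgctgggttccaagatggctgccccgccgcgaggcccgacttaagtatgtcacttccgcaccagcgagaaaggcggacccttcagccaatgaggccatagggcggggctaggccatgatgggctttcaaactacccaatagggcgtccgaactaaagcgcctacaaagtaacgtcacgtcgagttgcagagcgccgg
Eif2s2, chr2:154892887-154893106, minus strand: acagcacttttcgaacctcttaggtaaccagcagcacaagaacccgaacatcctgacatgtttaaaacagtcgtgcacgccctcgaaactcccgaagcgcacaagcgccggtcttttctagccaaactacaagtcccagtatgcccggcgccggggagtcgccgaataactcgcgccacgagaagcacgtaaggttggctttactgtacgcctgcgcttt
Eef2, chr10:81176431-81176650, plus strand: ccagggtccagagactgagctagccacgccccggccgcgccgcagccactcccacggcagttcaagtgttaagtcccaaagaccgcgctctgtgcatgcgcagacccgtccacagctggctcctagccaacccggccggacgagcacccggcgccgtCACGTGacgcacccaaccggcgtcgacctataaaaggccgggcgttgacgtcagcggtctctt

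Eif3f held CACGTG 68 bases before the start, Eif4a1 189 bases before it and Eef2 43 bases before it, and the window of Eif2s2 held none. Over the full RefSeq windows, 250 bases before to 50 after the start, 51 of the 75 genes had a window. Each gene was counted once, by the first window listed for it, and 7 members had more than 1. Of the 51, 12 (23.5%) held CACGTG, beside 7.24% of all 27025 genes with a window and 9.92% of the 10386 other genes above the expression limit. Those 12 were Eef1akmt4, Eef1aknmt, Eef2, Eef2k, Eif1b, Eif3a, Eif3f, Eif3k, Eif4a1, Eif4g1, Eif4h and Usp16. Of the 12, Eif1b, Eif3f, Eif4a1 and Usp16 passed the test in some comparison, as did 27 of all 72 tested factors. A link between holding CACGTG and passing was not tested. The antioxidant response element, TGACNNNGC on either strand, was in the window of 17.6% of the members, beside 12.5% of all genes with a window and 14.7% of the other genes above the limit. In Eef2 it overlapped the MYC E-box. Another E-box, CACCTG, which is read by ZEB factors, partners of CTBP, was in the window of 9.8% of the members, beside 20% of all genes and 17.1% of the others. TGATGNAA, the amino acid response element, was in 1.96%, beside 4.06% and 2.29%. A letter match is a description and no binding was measured.

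With 4-Cl-HIPP 0 of 72 translation factors passed the test in either genotype (limma), beside 0.366% of all genes in wildtype and 0.501% in dKO cells. At an unadjusted p below 0.05 there were 8 (11.1%, all genes 8.19%) in wildtype and 7 (9.72%, all genes 8.47%) in dKO cells. The median log2 difference was -0.026 in wildtype and -0.030 in dKO cells, compared with 0.010 and 0.0043 over all genes, and 47 and 48 of the 72 were negative. Without wildtype 4-Cl-HIPP replicate 1 the wildtype median was -0.0085 and without wildtype vehicle replicate 3 it was -0.014. For 64 and 66 of the 72 the 95% interval on the log2(TPM + 1) scale lay inside a 1.5-fold change, and the share over all genes was not computed. These comparisons use the same vehicle samples as those of MTOB, and the doses differ, so the compounds are given side by side without a test between them.

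The members nearest to the threshold with 4-Cl-HIPP belonged to several roles. Cpeb2 in wildtype held 5.94, 5.94 and 5.13 TPM with vehicle and 8.83, 7.65 and 10.4 TPM with 4-Cl-HIPP, without overlap, and in dKO cells 9.57, 9.39 and 7.99 against 12.3, 9.86 and 7.71 TPM, with overlap. Usp16 in wildtype held 73.9, 54.9 and 72.9 against 36.4, 41.9 and 49.7 TPM, and in dKO cells 47.1, 34.3 and 37.8 against 41.8, 44.3 and 44.5 TPM. The wildtype 4-Cl-HIPP samples of Usp16 thus lay in the range of the dKO samples. Eif2b2, a subunit of the eIF2 exchange factor, in dKO cells held 60.8, 53.3 and 59.5 against 73.0, 74.0 and 87.8 TPM (log2 difference 0.43, 95% interval 0.22 to 0.63, adjusted p = 0.0709, limma). It passed (adjusted p = 0.048) when the limit was raised to 10 mean normalized counts. Eif2s2 in dKO cells held 187, 184 and 177 against 169, 161 and 168 TPM (-0.14, 95% interval -0.21 to -0.06, adjusted p = 0.117).

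Set beside MTOB, the 4-Cl-HIPP differences of the genes that passed with MTOB varied by gene. In wildtype every 4-Cl-HIPP sample lay below every vehicle sample for Eif4g2, Eif4a1 and Etf1. They held 890, 892 and 890 TPM, 1484, 1508 and 1484 TPM, and 157, 155 and 158 TPM. With MTOB these genes had positive differences in wildtype. In dKO cells the 4-Cl-HIPP samples also lay below vehicle for Eif4g2, but overlapped with vehicle for Eif4a1 and Etf1. For Eif4b the 4-Cl-HIPP differences were 0.01 in both genotypes, with intervals of -0.04 to 0.07 and -0.05 to 0.07. Eif6 differed by -0.04 in wildtype and 0.15 in dKO cells, Eif1 by -0.07 and 0.02, and Eif3f by 0.03 in wildtype. Eif4ebp1 in wildtype differed by 0.21 (95% interval 0.07 to 0.35, adjusted p = 0.309, limma), from the vehicle values above to 90.5, 79.0 and 89.7 TPM. Of factors that did not pass with MTOB, Eef1a1 differed by -0.05 (-0.11 to 0.00) in wildtype and -0.04 (-0.10 to 0.01) in dKO cells. Eef2 differed by -0.02 and -0.03.

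**Figure D4:**
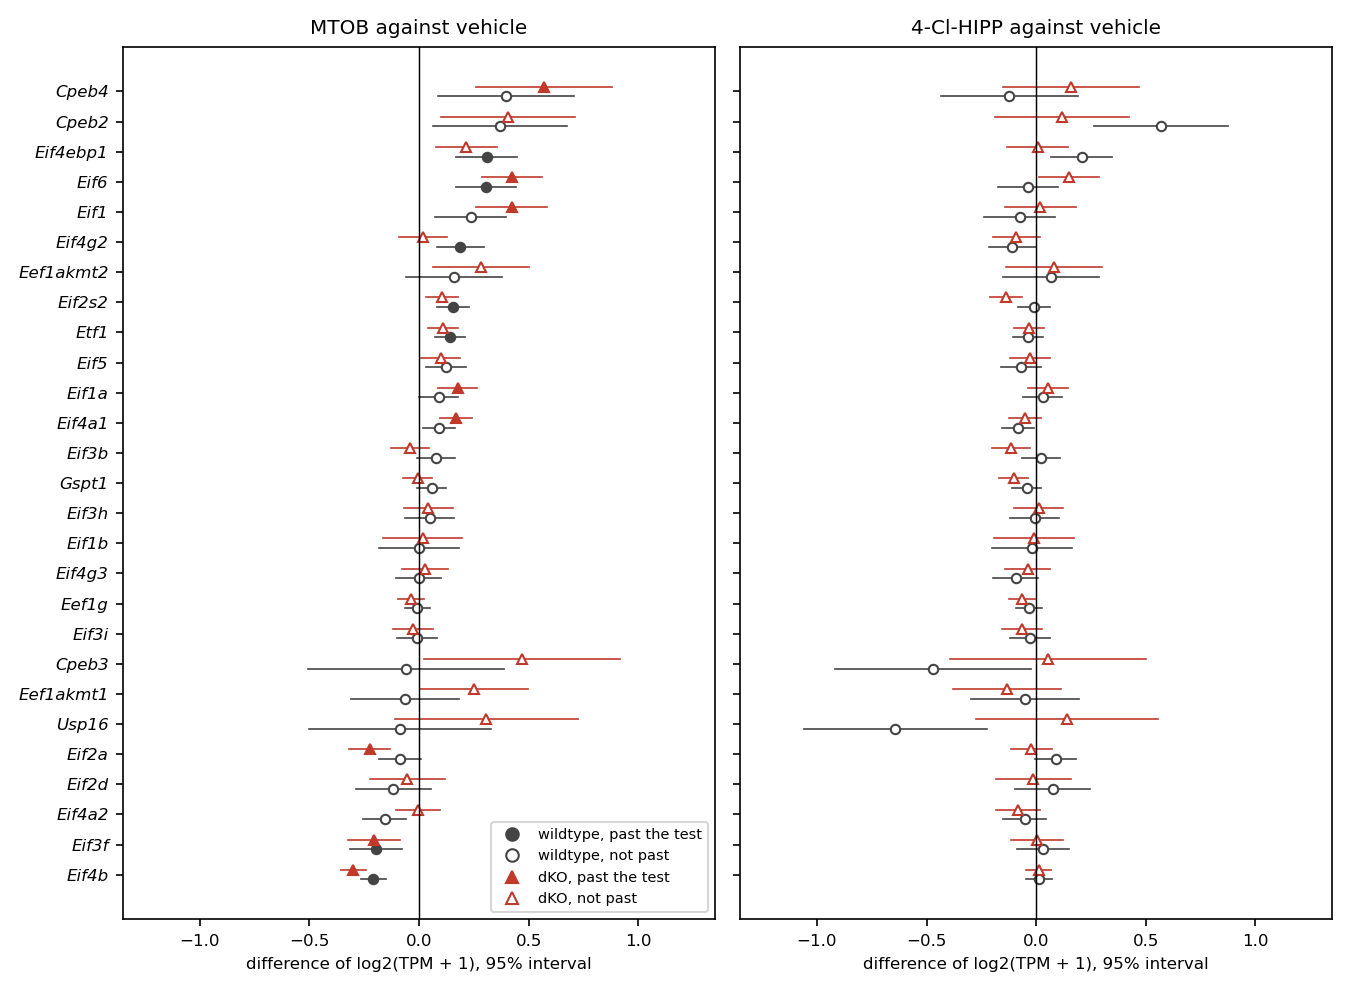
Difference of log2(TPM + 1) from vehicle with its 95% interval for the 27 translation factors that passed the test in at least 1 comparison, for MTOB (left) and 4-Cl-HIPP (right) in wildtype (circles) and dKO cells (triangles); filled points passed at an adjusted p below 0.05. With MTOB 7 points in wildtype and 8 in dKO cells are filled, and with 4-Cl-HIPP none.

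Whether an effect depended on genotype was tested as the dKO effect minus the wildtype effect. For MTOB 0 of 72 passed (limma), beside 0.0916% of all genes, and for 4-Cl-HIPP 0 of 72, beside 0% of all genes. At an unadjusted p below 0.05 there were 6 (8.33%) each, beside 6.89% and 4.48% of all genes. For MTOB the difference was -0.09 (95% interval -0.17 to -0.01, adjusted p = 0.693) for Eif4b, -0.17 (-0.32 to -0.02, adjusted p = 0.69) for Eif4g2 and 0.15 (0.01 to 0.29, adjusted p = 0.711) for Eif4a2. For 4-Cl-HIPP it was 0.78 (0.19 to 1.37, adjusted p = 1) for Usp16 and -0.45 (-0.88 to -0.02, adjusted p = 1) for Cpeb2. The intervals of Eif6 (-0.07 to 0.31) and Eif3f (-0.18 to 0.16) for MTOB held 0. Across the 72 genes 59 intervals for MTOB and 61 for 4-Cl-HIPP lay inside a 1.5-fold difference on the log2(TPM + 1) scale. The share over all genes was not computed.

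Between genotypes the non-canonical initiator tRNA factors Eif2a and Eif2d were higher in dKO cells, and in the average over treatments so were all 3 CPEB genes. Denr, a gene outside the chosen factors whose protein resembles part of eIF2D, was lower in dKO cells in the average. Under vehicle 6 of 72 passed, 4 (5.56%) higher in dKO, beside 7.01% of all genes, and 2 (2.78%) lower, beside 3.72%. On the log2(TPM + 1) scale Usp16 alone also exceeded a fold of 1.5, 1.39% of the members beside 4.83% of all genes, while in mean TPM Cpeb2 did so too, at a ratio of 1.58. Averaged over the 3 treatments 20 passed, 9 (12.5%) higher, beside 13.1%, and 11 (15.3%) lower, beside 9.27%. All 6 of the vehicle comparison were among the 20. The members' shares were near or under those of all genes, apart from the lower calls in the average.

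Eif2d, which can deliver initiator tRNA and recycle ribosomes, was the clearest. Under vehicle it held 36.3, 40.9 and 36.1 TPM in wildtype and 61.0, 50.1 and 51.9 TPM in dKO cells, a log2 difference of 0.51 (SE 0.081, adjusted p = 0.000426, limma). Over the treatments its 9 wildtype samples ranged from 33.6 to 43.1 TPM, with a median of 36.3, and its 9 dKO samples from 49.4 to 61.0 TPM, with a median of 51.9, so no sample overlapped. The averaged difference was 0.50 (SE 0.046, adjusted p = 6.3e-07). Eif2a held 75.1, 75.9 and 72.7 TPM in wildtype and 88.8, 83.6 and 89.1 TPM in dKO vehicle samples (0.22, SE 0.044, adjusted p = 0.00299). Its averaged difference was 0.14 (adjusted p = 0.0007, limma). With MTOB its dKO values of 71.6, 75.1 and 76.5 TPM lay above the wildtype MTOB values of 70.0, 71.0 and 69.3 TPM. These dKO values lay within the range of all 9 wildtype samples, 69.3 to 81.6 TPM, once treatments were pooled. Both genes passed under every alternative setting.

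Eif2s2 held 168, 162 and 164 TPM in wildtype and 187, 184 and 177 TPM in dKO vehicle samples (log2 difference 0.15, adjusted p = 0.00906, limma). The other eIF2 subunits did not pass, with Eif2s1 at -0.16 (adjusted p = 0.555). Eif4g3, an eIF4G paralog, was lower, at 82.1, 81.0 and 83.5 TPM in wildtype and 71.0, 72.8 and 73.2 TPM in dKO vehicle samples (-0.18, SE 0.049, adjusted p = 0.0238). This call was lost in 6 of 15 alternative settings: without a variance trend, without wildtype vehicle replicate 1 or 3, and without any of the dKO vehicle samples. In the average it differed by -0.15 (adjusted p = 0.000686).

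All 3 CPEB genes were higher in dKO cells in the average. Cpeb2 ranged from 5.13 to 10.4 TPM in 9 wildtype samples (median 7.65) and from 7.71 to 13 TPM in 9 dKO samples (median 9.86), a log2 difference of 0.44 (SE 0.082, adjusted p = 0.000833, limma). Under vehicle it differed by 0.58 (adjusted p = 0.014), with wildtype and dKO samples apart, and this call was lost without wildtype vehicle replicate 3 and without dKO vehicle replicate 1 or 2. Cpeb3 ranged from 0.805 to 2.49 TPM (median 1.28) and from 1.69 to 4.37 TPM (median 2.82), a difference of 0.62 (SE 0.12, adjusted p = 0.00126). Cpeb4 differed by 0.29 (SE 0.084, adjusted p = 0.0213). The samples of the genotypes overlapped for each of these genes once treatments were pooled.

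Usp16 was lower in dKO cells under vehicle, at 47.1, 34.3 and 37.8 TPM against 73.9, 54.9 and 72.9 TPM in wildtype (log2 difference -0.74, SE 0.20, adjusted p = 0.0208, limma). In the average it differed by -0.35 (adjusted p = 0.0345), a call lost in 11 of 26 alternative settings. Its residual SD, as given above, was over the 90th percentile, and the vehicle call was lost without wildtype vehicle replicate 1 or 3, without dKO vehicle replicate 2 or 3, and with the compared groups fitted alone. Without wildtype vehicle replicate 3, 3 of the 72 passed under vehicle, in place of 6.

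**Figure D5:**
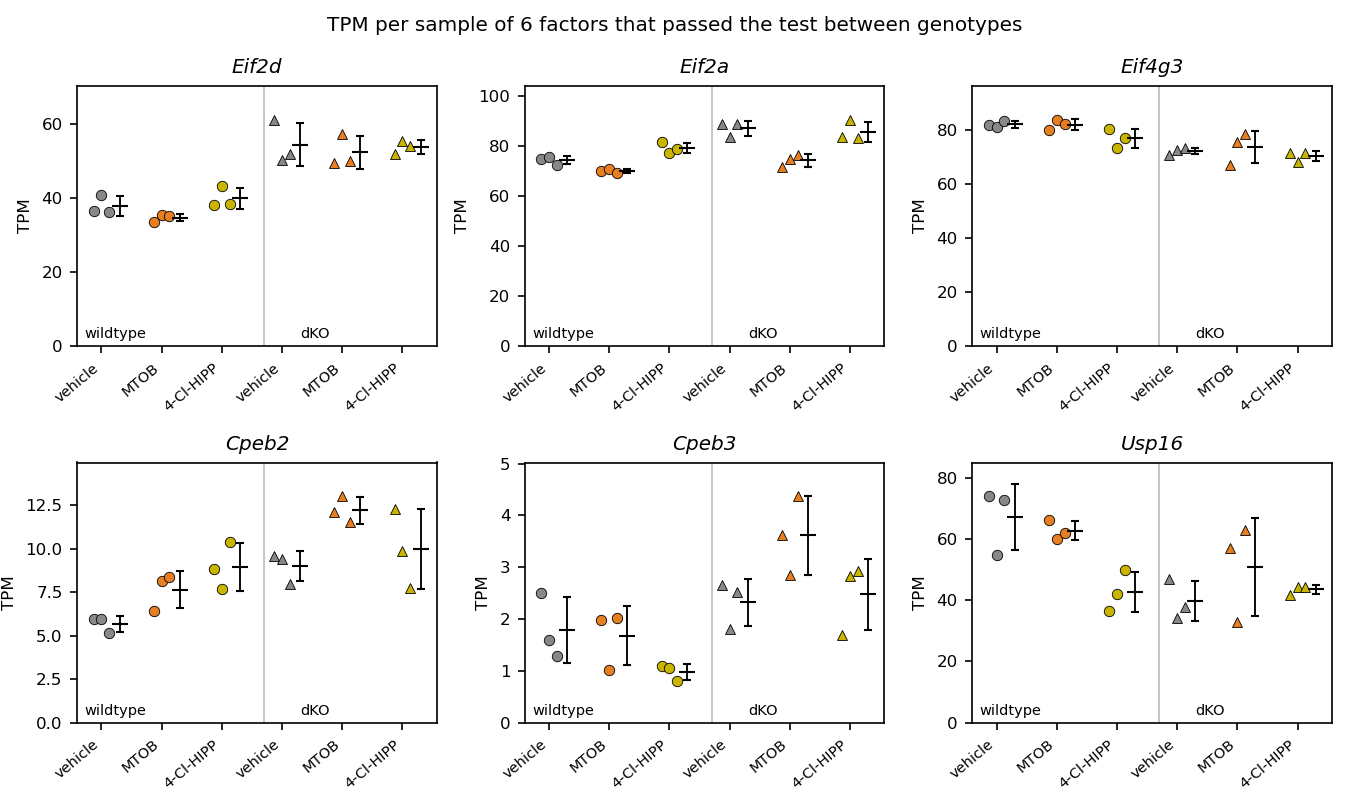
TPM of 6 translation factors in each of the 18 samples (circles wildtype, triangles dKO; grey vehicle, orange MTOB, yellow 4-Cl-HIPP), with mean and SD (n = 3) beside each group; axes start at 0. Eif2d separates the genotypes without overlap, at 33.6 to 43.1 TPM in wildtype and 49.4 to 61.0 TPM in dKO samples, while the mean of Usp16 is highest with wildtype vehicle, at 67.2 TPM, and wildtype MTOB, at 62.7 TPM.

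The remaining averaged calls were small. Higher in dKO cells were Eif4a2 by 0.11 on the log2 scale (adjusted p = 0.00865, limma), Eif5, the GTPase activator of eIF2, by 0.08 (adjusted p = 0.0339), and Eef1g, a subunit of the eEF1 complex, by 0.06 (adjusted p = 0.00818). Lower were the eEF1A methyltransferase genes Eef1akmt1 (-0.24, adjusted p = 0.0165) and Eef1akmt2 (-0.20, adjusted p = 0.026), Eif1b (-0.15, adjusted p = 0.0378), Eif4g2 (-0.11, adjusted p = 0.0127) and Eif1a (-0.09, adjusted p = 0.0141). Of the eIF3 subunits, Eif3h (-0.10), Eif3i (-0.09) and Eif3b (-0.07) were lower, with adjusted p of 0.0273, 0.0119 and 0.0429, and the termination factor Gspt1 was lower by a log2 difference of -0.07 (adjusted p = 0.00926). Wildtype and dKO samples overlapped for each of these genes once treatments were pooled. Of 26 alternative settings, the call was lost in 16 for Eif3b, 14 for Eif1b, 12 for Eif5, 7 for Eif3h and 4 for Eef1akmt2, most of them with 1 sample left out. With the replicate number as a block, the calls of Eif3b and Eif1b were lost.

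Other genes of the translation machinery, from a list of 46 of which 44 were above the expression limit, included larger changes. With MTOB 4 (9.09%) were higher and 3 (6.82%) lower in wildtype, beside 3.8% and 3.46% of all genes, and 2 (4.55%) higher and 3 (6.82%) lower in dKO cells, beside 3.04% and 3.54%. Pdcd4, whose protein binds and inhibits eIF4A, fell from 7.49 ± 1.07 to 2.86 ± 0.67 TPM (SD, n = 3) in wildtype (log2 difference -1.15, SE 0.15, adjusted p = 0.000188, limma) and from 9.39 ± 1.48 to 4.91 ± 0.23 TPM in dKO cells (-0.80, adjusted p = 0.00448). Mknk2, a kinase of eIF4E, fell in both, by 0.32 and 0.26 on the log2 scale (adjusted p = 0.000389 and 0.00276). Denr, whose protein recycles ribosomes and resembles part of eIF2D, rose by 0.36 (adjusted p = 0.0073) and 0.28 (adjusted p = 0.0319). The helicase gene Ddx3x rose by 0.12 (adjusted p = 0.0463) and 0.13 (adjusted p = 0.0318).

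Eif2ak2, the interferon-induced kinase PKR that phosphorylates eIF2, rose with MTOB in wildtype from 26.3 ± 2.69 to 44.4 ± 5.05 TPM (SD, n = 3), a log2 difference of 0.73 (adjusted p = 0.000242, limma), and was at 43.4 ± 5.27 TPM in dKO vehicle samples. Rps6kb1, the S6 kinase, fell by 0.32 (adjusted p = 0.0241) and Tpt1 rose by 0.11 (adjusted p = 0.0243) in wildtype. Gigyf1, part of a translational repressor, fell by 0.31 in dKO cells (adjusted p = 0.0158). With 4-Cl-HIPP 0 of the 44 passed in either genotype (limma), while 7 (15.9%) in wildtype and 12 (27.3%) in dKO cells had an unadjusted p below 0.05, beside 8.19% and 8.47% of all genes.

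Under vehicle 3 of the 44 (6.82%) were higher in dKO cells and 2 (4.55%) lower, beside 7.01% and 3.72% of all genes. Higher were Eif2ak2 (log2 difference 0.70, adjusted p = 0.00019, limma), Mknk2 (0.21, adjusted p = 0.0061) and Eif2ak4, the kinase GCN2 (0.33, adjusted p = 0.0324). Lower were Rps6kb1 (-0.35, adjusted p = 0.00845) and the poly(A)-binding protein gene Pabpc4 (-0.15, adjusted p = 0.0161). In the average 8 (18.2%) were higher, beside 13.1% of all genes, with Pdcd4 (0.46, adjusted p = 0.00116), Impact (0.34), Angel1 (0.37), Gigyf2 (0.13) and Hbs1l (0.12) added to those 3. In the average 6 (13.6%) were lower, beside 9.27%, with Lsm14a (-0.16), Denr (-0.17), Larp1 (-0.06) and Tpt1 (-0.05) added to Rps6kb1 and Pabpc4. The median of the 44 was -0.0026 with MTOB in wildtype and -0.0080 in dKO cells.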

How the data were processed

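RNA of 18 samples was sequenced from unstranded libraries. Per the methods, the authors quantified transcripts with Salmon 1.9.0 on Gencode M28 (GRCm39) and summarised genes with tximport. The deposited TPM per gene and sample were used as given, and no other column of per-sample values entered any step. The deposited mean normalized count per gene, a signal that the authors obtained with DESeq2 1.44.0, served as expression limit (above the 10th percentile, 0.222) and variance trend. The deposited log2 fold changes and adjusted p-values hold the authors' own comparisons and were not used.

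Here log2(TPM + 1) was fitted with 6 group means over all 18 samples (limma 3.58.1, R 4.3.3, empirical Bayes with variance trend), with Benjamini-Hochberg adjustment over 16383 genes in each of the 8 contrasts. The procedure was tested on simulated data. Members, roles, lists and tests were chosen with earlier results of these data known. Named genes are members past a test, those the rule gives by symbol, the highest and lowest of each role, members under the limit, listed translation genes past a test, and some members near a threshold or of a named complex, these last chosen after their values were seen. Groups came from the genotype and treatment in the labels, where no batch is given. Alternatives were pseudocounts of 0.1 and 5, other filters, median-ratio scaling, other variance trends, the compared groups alone, the replicate block and each sample left out. Promoter windows were RefSeq's, in GRCm38.p6. Figures used matplotlib 3.10.9 in Python 3.11.15.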

Additional observations from a re-analysis of the deposited data

How the results depend on the processing

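TPM without counts, 3 samples a group and shared vehicle samples limit these results, and p-values cover the spread between these samples only. Of 41 calls of translation factors, 18 held under every alternative. Over 835 alternative values 710 stayed on the same side of the threshold, 125 lost it and 0 changed sign, with the cause not tested. Without a variance trend 3 factors passed with MTOB in wildtype and 5 in dKO cells, and with the compared groups fitted alone 3 and 2. The averaged genotype contrast uses every group, so fitting its groups alone gives no alternative for it. With the limit raised to 10 mean normalized counts, 1 passed with 4-Cl-HIPP in dKO cells. With 1 sample left out, 4 to 6 passed with MTOB in wildtype, 6 to 10 in dKO cells, 3 to 6 between genotypes under vehicle, 16 to 23 in the average, 0 to 0 with 4-Cl-HIPP and 0 to 0 for differences between effects.

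Over all genes, fitting the compared groups alone gave 699 calls in place of 1189 with MTOB in wildtype, 305 in place of 1078 in dKO cells, 24 in place of 60 with 4-Cl-HIPP in wildtype and 9 in place of 82 in dKO cells. For the difference of the MTOB effect 15 became 6 without a trend, 8 with the replicate block and 10 with the groups alone. Median-ratio scaling moved the calls for MTOB in dKO cells from 498 higher of 1078 to 590 higher of 1039. Median-ratio scaling gave a mean summed share of 2.81% for wildtype MTOB, 2.63% for dKO vehicle and 2.55% for dKO 4-Cl-HIPP samples. With it every MTOB sample lay above every vehicle sample of its genotype, in wildtype and in dKO cells.

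Pairing of samples by replicate number was not seen at the limit of 0.1 set for it. Deviations of the 45 same-numbered pairs correlated at -0.141 to 0.0909, 0 above 0.1, and 1 of 18 samples correlated best with its own number. With 3 samples a group this does not exclude pairing. With the replicate block 6 factors passed with MTOB in wildtype, 8 in dKO cells, 6 between genotypes under vehicle and 18 in the average.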
